A study of Rattus norvegicus with 100 samples.

Results

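The response of the immature rat uterus to ethinylestradiol (EE), a synthetic estrogen, was compared between 28 h and 4 h, the same time of day a day apart. The quantity followed for each gene was the difference of effects, which is the EE effect at 28 h minus the EE effect at 4 h. Each effect was itself the mean log2 intensity of EE-treated uteri minus that of control uteri of the same time. The samples were picked by their titles: 5 EE-treated uteri at 28 h, 5 control uteri at 28 h, 5 EE-treated uteri at 4 h and 5 control uteri at 4 h, which is 20 arrays of 100 in the study. The other arrays are of uterus at further times and of pituitary gland. All animals were immature females in a uterotrophic assay, a regulatory test in which the uterus of a young rat grows in answer to an estrogen. The labels name neither the dose, the route and the days of dosing, nor the control's vehicle, the strain and the age in days. Nor do they tell if the 5 arrays of a group come from 5 different rats. A p-value here thus speaks only to the spread among arrays within groups, which may be technical. For the gene tests this spread was pooled over all 70 uterus arrays.

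Estrogens act through nuclear receptors that bind DNA or work together with other transcription factors. In the rodent uterus a single exposure is known to give an early phase, with fast gene induction and water uptake, and a later phase of growth, with DNA synthesis and cell division that is most marked in the epithelium. The tissue holds smooth muscle, stroma, epithelium, vessels and immune cells, and RNA was taken from all of them together. In such bulk samples fewer cells of a type and less RNA per cell cannot be told apart.

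Each of the 20 arrays held 9542 to 10380 probe sets with a value, and 34.83% to 40.07% of the 15923 probe sets on it were blank. The median intensity lay between 96.28 and 107.7, on a linear scale. Within a group, pairs of arrays correlated at r = 0.9726 to 0.9868 across probe sets, and no pair was identical. The log2 difference between the 3'-end and 5'-end control probe sets of Actb, a measure of RNA integrity and labelling, was 0.198 ± 0.073 in EE-treated and 0.441 ± 0.078 in control uteri at 28 h (SD, n = 5 each; exact permutation test, two-sided, p = 0.00794, adjusted over 8 tests 0.0635). At 4 h it was 0.414 ± 0.154 in EE-treated and 0.618 ± 0.176 in control uteri (exact p = 0.0873, adjusted 0.175). The part of these differences in the gene results was not tested. All 18 smooth muscle markers on the array had values on at least 3 arrays of every group. This held for 6769 of 10411 genes, so it is no check of the tissue label.

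Of 6769 genes with at least 3 values in each of the 4 groups, 2432 (35.9%) passed in the difference of effects (limma on log2(intensity + 30.4), Benjamini-Hochberg adjusted p under 0.05). For 1237 genes (18.3%) the EE effect was more positive at 28 h, and for 1195 (17.7%) it was more negative. The median difference over all 6769 genes was -0.0049 on the log2 scale. At 28 h the EE effect itself passed for 4400 of 6993 genes (62.9%), with 1988 rises (28.4%) and 2412 falls (34.5%). At 4 h it passed for 4034 of 6958 genes (58%), with 1637 rises (23.5%) and 2397 falls (34.4%). Both responses passed for more genes than the difference between them. The difference combines 4 group means and so has a larger standard error than either effect. The lower count therefore does not show that fewer genes differed.

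The genes that passed in the difference fell into distinct courses. For 496 genes a rise was present at 28 h that did not pass at 4 h, and for 359 genes a fall. For 262 genes a rise at 4 h did not pass at 28 h, and for 306 genes a fall. The direction was opposite for 250 genes: 161 fell at 4 h and rose at 28 h, and 89 rose at 4 h and fell at 28 h. A rise was larger at 28 h for 154 genes and smaller for 211, while a fall was larger for 253 and smaller for 99. The other 42 passed in the difference alone. Whether or not they passed in the difference, 1082 genes rose and 1555 fell at both times. For 803 of the rises and 1281 of the falls the size was similar, which means that the 95% interval of the difference lay within 1.5-fold either way. A difference within these bounds could still pass, so these counts overlap with those of larger and smaller effects.

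**Figure D1:**
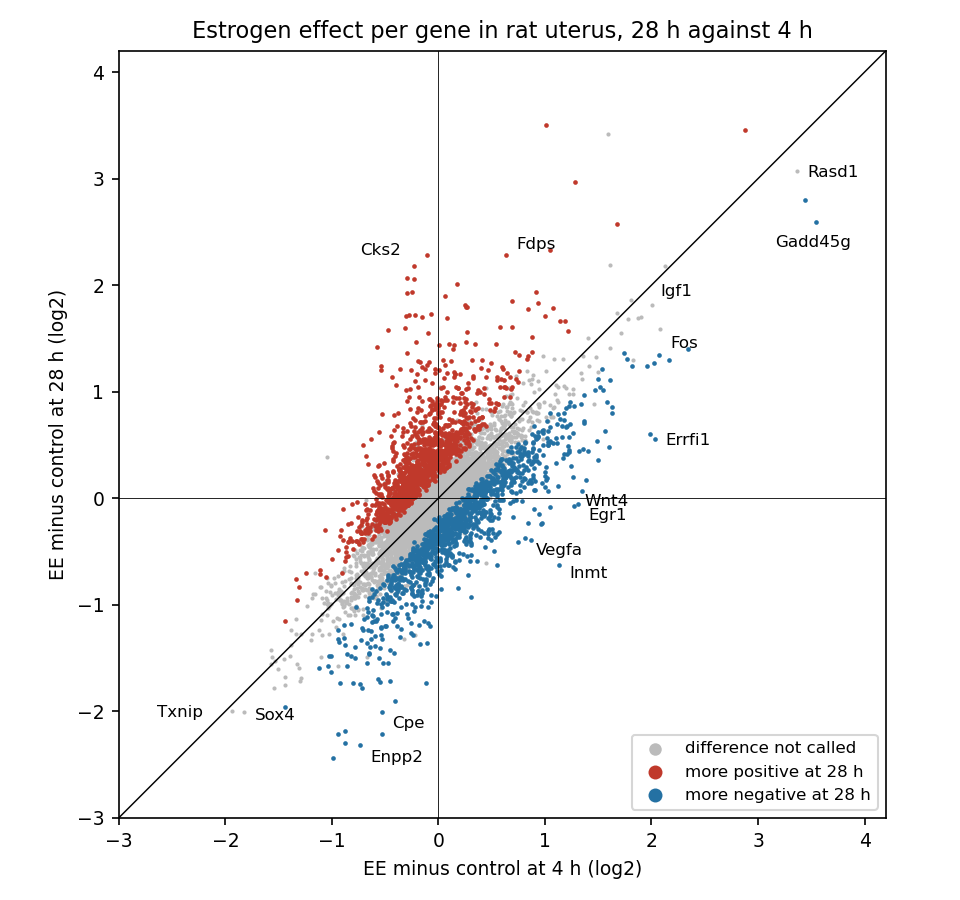
EE minus control at 4 h (horizontal, log2) against EE minus control at 28 h (vertical, log2) for the 6769 genes tested, one point per gene; red points passed with a more positive effect at 28 h (1237), blue points with a more negative one (1195), grey points did not pass (4337). Genes on the diagonal had the same effect at both times; Txnip, Sox4 and Igf1 lie near it, Cks2 and Fdps above it, and Egr1, Vegfa and Inmt below it.

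The effects at 28 h and 4 h rest on separate arrays, and across the 6769 genes they correlated at r = 0.672 (Spearman 0.648). This is a description across genes, which are not independent. Of 3970 genes that passed at 4 h, 3339 had the same sign at 28 h and 2637 passed the same way. Of 206 genes that changed at least 2-fold at 4 h, 192 passed the same way at 28 h and 1 passed the opposite way. For 94 of those 206 the effect was smaller at 28 h by the test of the difference, and for 15 it was larger. The 206 were selected by their 4 h effect, which also enters the difference. Such a selection favours smaller effects at 28 h, so no conclusion is drawn from the 2 counts.

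The difference lay mostly in the EE-treated uteri. EE-treated uteri at 28 h against EE-treated uteri at 4 h passed for 3193 of 7032 genes (45.4%), with 1639 (23.3%) higher and 1554 (22.1%) lower at 28 h. Of the 2432 genes, 2085 (85.7%) also passed in that comparison, all in the direction of the difference. The control uteri at 28 h against those at 4 h passed for 423 of 7142 genes (5.92%), with 169 (2.37%) higher and 254 (3.56%) lower at 28 h. For 274 of the 2432 genes (11.3%) the control uteri changed in a way that added to the difference, and for 4 in a way that took from it. The median size of the change among the 2432 genes was 0.348 log2 units in EE-treated and 0.112 in control uteri.

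**Figure D2:**
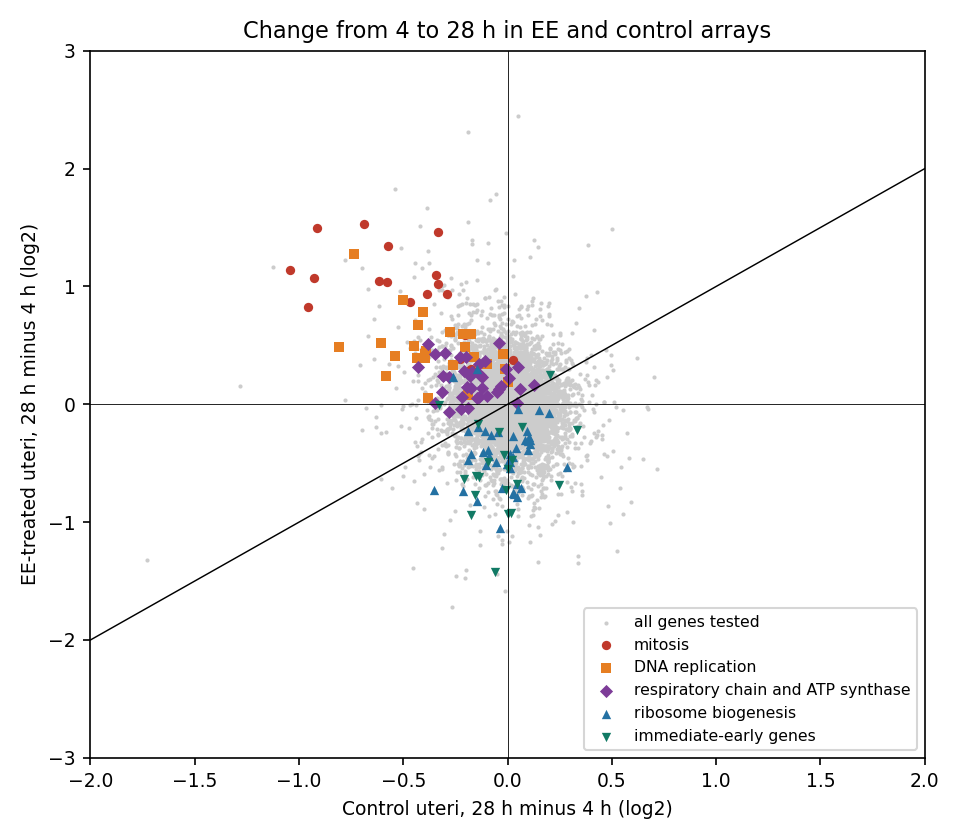
Log2 intensity at 28 h minus that at 4 h in control uteri (horizontal) against the same in EE-treated uteri (vertical) for the 6769 genes tested, with 5 gene lists coloured; the diagonal marks equal change in both. Most mitosis and DNA replication genes sit at the upper left, higher at 28 h in EE-treated uteri and lower at 28 h in control uteri, while ribosome biogenesis and immediate-early genes sit below 0 on the vertical axis and near 0 on the horizontal one.

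A group of strong early responses stood at full size again at 28 h. Igf1, the growth factor through which estrogen acts on the uterine epithelium in rodents, had intensities of 1507, 1615, 1503, 1451 and 1320 in EE-treated and 396.4, 453, 376.1, 379.4 and 385.5 in control uteri at 28 h. At 4 h Igf1 had 1600, 1483, 1661, 1629 and 1720 in EE-treated and 375.8, 480.5, 357.7, 329.3 and 369.7 in control uteri. EE-treated uteri lay above all controls at both times, and the EE-treated uteri of both times overlapped. The effect was 1.82 ± 0.09 at 28 h and 2.01 ± 0.09 at 4 h (log2, SE), with a 95% interval of the difference of -0.45 to 0.07. At 24 h the effect of Igf1 was 1.31, and that of 28 h was greater by 0.51 (adjusted p = 0.00579).

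Cited4, a transcriptional coactivator, had 165.8, 234, 138.1, 133 and 222.8 in EE-treated and 37.81, 37.06, 35.52, 27.47 and 28.1 in control uteri at 28 h. At 4 h the values were 246, 208.8, 259.8, 198.6 and 236.1 in EE-treated and 47.94, 33.17, 36.64, 44.23 and 40.4 in control uteri. The groups did not overlap at either time, and the effect was 1.69 ± 0.12 at 28 h and 1.87 ± 0.12 at 4 h. Its effect at 24 h, measured on other arrays, was -0.21 and did not pass (adjusted p = 0.123), and the effect at 28 h exceeded that at 24 h by 1.90 (adjusted p = 1.07e-13). Cited4 was thus high in EE-treated uteri at 4 h and 28 h and not at 24 h.

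The same course in time was seen in others of these genes. Klf4, a transcription factor of epithelial differentiation, had 410, 556.5, 380.2, 576.3 and 728.5 in EE-treated and 143.9, 79.08, 121.5, 138.7 and 128.7 in control uteri at 28 h. At 4 h Klf4 had 441.9, 688.8, 338.9, 473 and 295.3 in EE-treated and 95.9, 102.8, 120.4, 84.17 and 101.9 in control uteri, again with no overlap with the controls. Its effect was 1.81, 0.72 and 1.86 at 4, 24 and 28 h, and that of Lgr6, a receptor for R-spondins, was 2.13, 0.38 and 2.17. For both genes the effect at 28 h was larger than that at 24 h (adjusted p = 0.00112 for Klf4 and 5.7e-10 for Lgr6). Gpx2, a glutathione peroxidase of epithelia, had effects of 1.68, 1.44 and 1.74, and its 28 h effect did not differ from that at 24 h by the test (adjusted p = 0.476). Across all genes the effect at 28 h differed from that at 24 h for 572 of 6856 genes (8.34%), 351 more positive (5.12%) and 221 more negative (3.22%). The effect at 24 h itself passed for 4194 of 7081 genes (59.2%), with rises for 24.9% and falls for 34.4%. The comparisons of 28 h with 4 h and with 24 h share the arrays of 28 h. Igf1, Cited4, Klf4, Lgr6 and Gpx2 were chosen for large effects at both 4 and 28 h. That choice favours a smaller effect at 24 h, so their tests of 28 h against 24 h describe the chosen genes only.

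Rasd1, a Ras-related GTP-binding protein, had the strongest early rise of the genes named here after Gadd45g and Inhbb. It had 580.8, 625.2, 453.9, 478 and 581.9 in EE-treated and 31.08, 35.87, 30.31, 54.05 and 38.24 in control uteri at 28 h. At 4 h Rasd1 had 732.8, 626.3, 593.8, 742.1 and 700 in EE-treated uteri and 40.27, 33.01, 45.27 and 33.96 in the 4 control uteri with a value. Its effects were 3.37, 1.004 and 3.07 at 4, 24 and 28 h, and the difference between 28 h and 4 h of -0.30 ± 0.15 did not pass (adjusted p = 0.115, and 0.0355 with an offset of 100). Fos, which with Jun proteins forms AP-1, had 100.5, 117.7, 119.4, 117.8 and 112 in EE-treated uteri at 28 h and 19.84, 17.59 and 15.13 in the 3 control uteri with a value. At 4 h Fos had 252.3, 168.5, 141.3, 121.6 and 182.6 in EE-treated uteri and 16.43, 20.64, 16.59 and 13.67 in 4 control uteri. Every EE-treated uterus lay above every control at each time, and those of 28 h lay below those of 4 h. The effects of Fos were 2.08, 0.17 and 1.58 at 4, 24 and 28 h. Its difference of -0.49 ± 0.30 did not pass (adjusted p = 0.202) in the fit of 70 uterus arrays but did with the 20 arrays alone (0.0385).

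Strong falls were also present at both times. Sox4, a transcription factor of progenitor cells, had 83.03, 65.89, 65.85, 70.08 and 66.29 in EE-treated and 364.7, 384.8, 353.1, 344.6 and 422.8 in control uteri at 28 h. At 4 h Sox4 had 74.2, 81.87, 56.1, 64.57 and 78.55 in EE-treated and 304.5, 332, 317.9, 351 and 334 in control uteri. The EE-treated values of both times overlapped and lay far below the controls. The effects of Sox4 were -1.82, -0.64 and -2.01 at 4, 24 and 28 h, and the effect at 28 h minus that at 24 h was -1.36 (adjusted p = 2.65e-12).

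Txnip, an inhibitor of thioredoxin and of glucose uptake, had 509.4, 512.3, 416.8, 488.2 and 485.9 in EE-treated and 1907, 2564, 2042, 1728 and 1927 in control uteri at 28 h. At 4 h Txnip had 519.3, 445.8, 448.1, 379.2 and 579.7 in EE-treated and 2156, 1752, 1923, 1833 and 1786 in control uteri. The groups did not overlap at either time. Its effects were -1.94, -1.10 and -1.999 at 4, 24 and 28 h. Falls of similar size at 4 and 28 h with a smaller fall at 24 h were also found for Fzd1, a Wnt receptor (-1.57, -0.72 and -1.55), Pik3ip1, an inhibitor of PI3-kinase (-1.54, -0.80 and -1.79), and Mxi1, an antagonist of Myc (-1.53, -0.94 and -1.53). For each of them the effect at 28 h was lower than at 24 h (adjusted p = 2.53e-06 for Fzd1, 2.85e-06 for Pik3ip1 and 0.0108 for Mxi1). Sox4, Txnip, Fzd1, Pik3ip1 and Mxi1 were likewise chosen for large falls at both 4 and 28 h, which favours a smaller fall at 24 h.

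**Figure D3:**
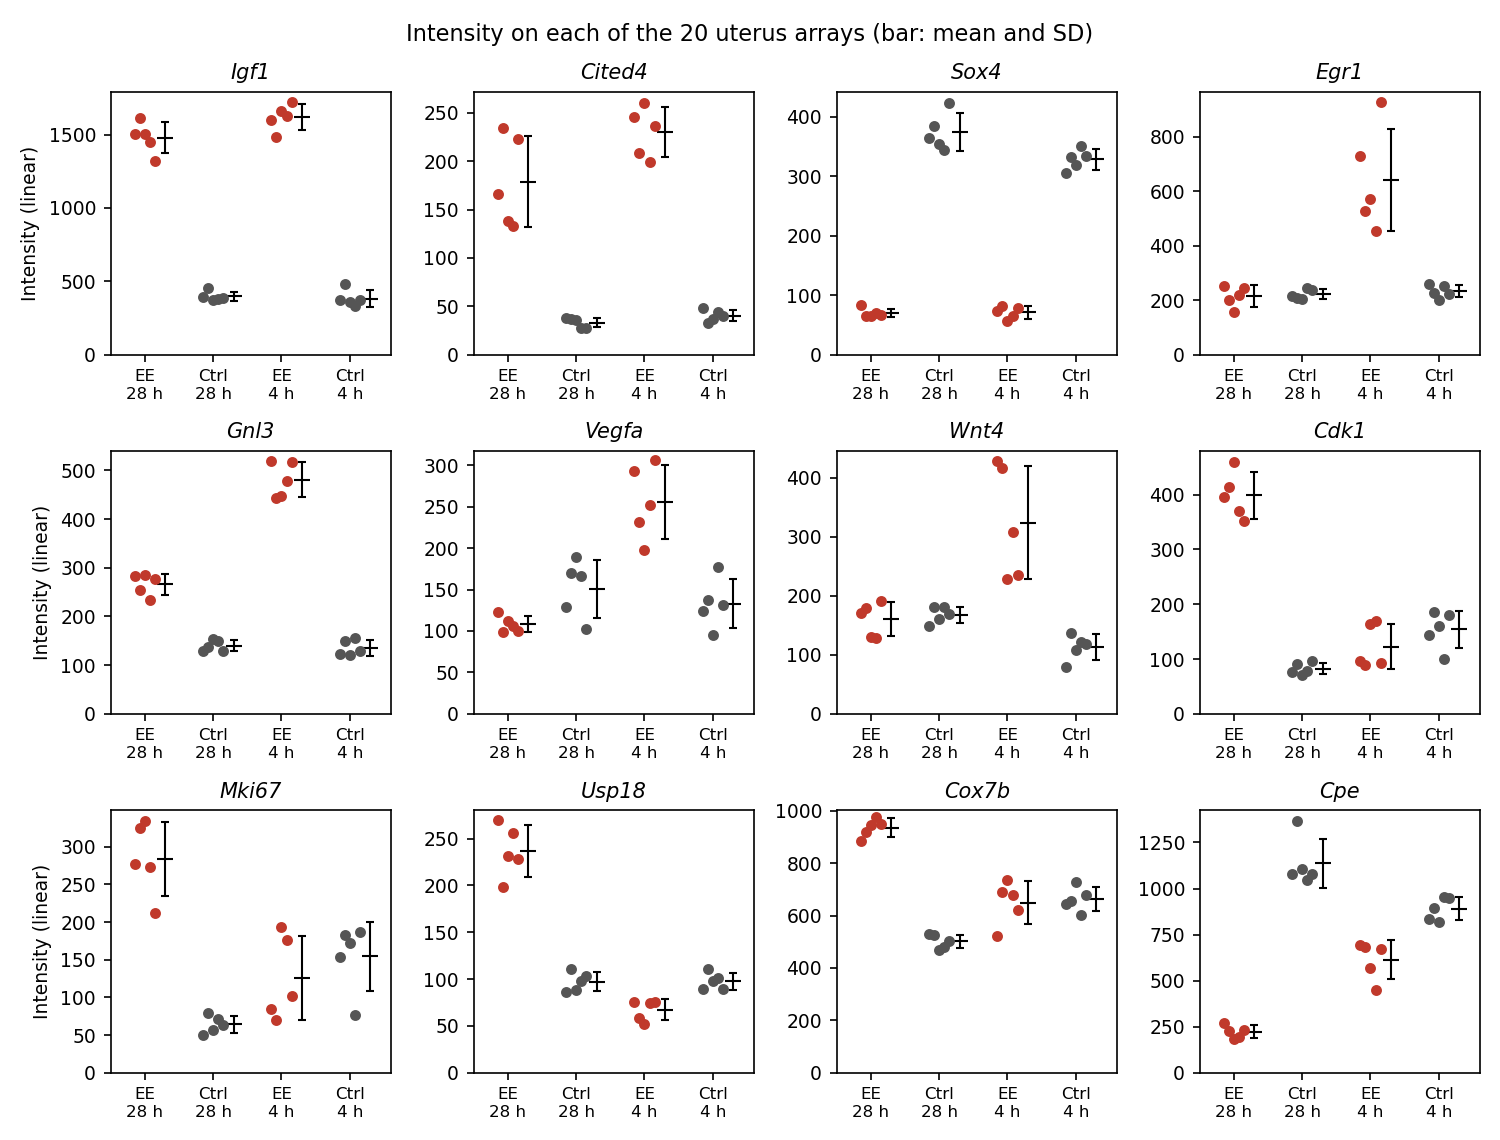
Linear intensity of 12 genes on each array (points) with the mean and SD beside them, for EE-treated and control uteri at 28 h and then at 4 h; each axis starts at 0 and levels are not comparable between genes. Igf1, Cited4 and Sox4 separate EE-treated from control uteri at both times, Egr1, Vegfa and Wnt4 are high only in EE-treated uteri of 4 h, and Cdk1, Mki67 and Usp18 only in those of 28 h.

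**Figure D4:**
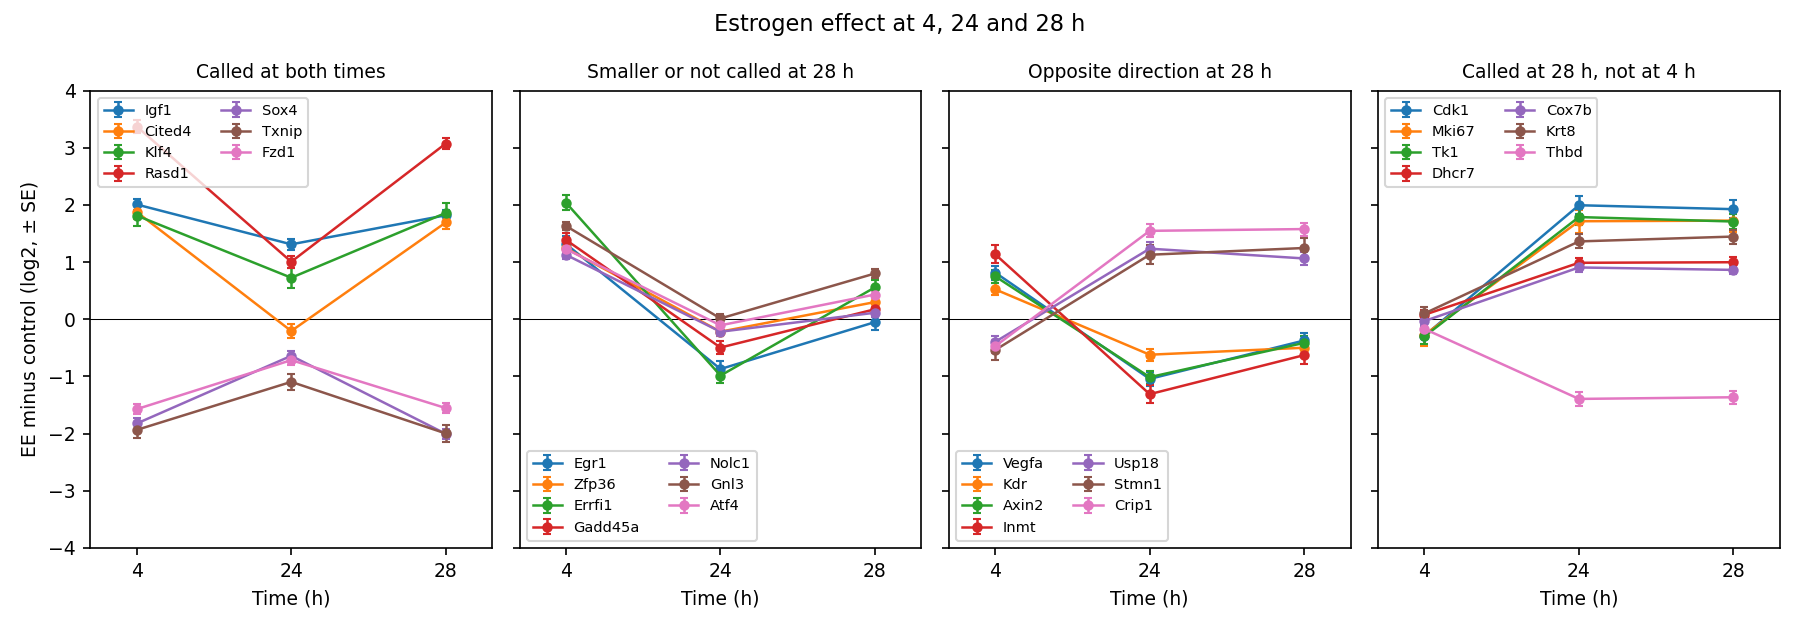
EE minus control (log2, ± SE) at 4, 24 and 28 h for 28 genes in 4 panels by their course; the time axis is not to scale. In the first panel Rasd1, Cited4 and Klf4 are high at 4 and 28 h and lower at 24 h, and Sox4, Txnip and Fzd1 mirror this below 0; in the last panel Cdk1, Mki67 and Tk1 stand at about the same level at 24 and 28 h and near 0 at 4 h.

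Most immediate-early genes, which switch on within minutes to hours of a stimulus without new protein synthesis, had a smaller EE effect at 28 h. Of 21 tested, 13 were more negative in the difference and 0 more positive, with a median difference of -0.492 beside -0.0049 over all genes. At 28 h 10 of them rose and 2 fell, and at 4 h 16 rose and 1 fell. Egr1, a zinc-finger transcription factor, had 253.9, 202.3, 156, 220 and 245.8 in EE-treated and 214.7, 209.6, 203.3, 244.5 and 239.5 in control uteri at 28 h. At 4 h Egr1 had 730.8, 526.5, 572.4, 456.3 and 926.4 in EE-treated and 259.5, 228.2, 202.5, 250.7 and 224.8 in control uteri. EE-treated and control uteri overlapped at 28 h and did not at 4 h. The effect of Egr1 was -0.05 ± 0.15 at 28 h and 1.31 ± 0.15 at 4 h, a difference of -1.37 ± 0.21 (adjusted p = 3.31e-07). Zfp36, which destabilises messages of cytokines and growth factors, had effects of 0.30 at 28 h and 1.24 at 4 h, and Srf, the serum response factor, 0.19 and 0.80. Unlike these, Klf4 and Fos had large effects at both 4 and 28 h. At 24 h the effects of Egr1, Zfp36 and Srf were -0.87, -0.22 and -0.28. Their effects at 28 h exceeded those at 24 h by 0.82, 0.52 and 0.47 (adjusted p = 0.00517, 0.00206 and 0.000921).

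Serum response factor binds the CArG box, and its site in the promoter of Zfp36 is shown because Zfp36 was among the immediate-early genes with the clearest change. Of the 21 genes, 15 had a promoter in the RefSeq table (GRCr8; 250 bases before to 50 after the start), and 5 of these (33.3%) held a CArG box on either strand, against 1.64% of all 27457 promoters and 1.48% of the 5694 promoters of genes tested. In the Zfp36 promoter (chr1:92799059-92799358, minus strand) the capitals mark the CArG box, which begins 32 bases before the start. A match of letters does not show binding.
Zfp36: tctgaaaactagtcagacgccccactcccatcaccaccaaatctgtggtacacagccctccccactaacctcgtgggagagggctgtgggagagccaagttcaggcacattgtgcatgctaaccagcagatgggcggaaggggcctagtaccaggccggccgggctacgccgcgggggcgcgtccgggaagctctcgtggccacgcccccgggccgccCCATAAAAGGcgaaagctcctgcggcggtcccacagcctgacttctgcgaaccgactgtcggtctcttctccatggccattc

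Of 12 feedback inhibitors of growth factor signalling 5 were more negative in the difference, beside 17.7% of all genes, 0 were more positive and 7 did not pass. Errfi1, an inhibitor of the epidermal growth factor receptor, had 249.5, 270.5, 188.4, 195.8 and 265.9 in EE-treated and 137.5, 129.3, 127.6, 173.2 and 177.1 in control uteri at 28 h. At 4 h Errfi1 had 766.7, 645.3, 610.1, 649.6 and 507.1 in EE-treated and 149.8, 118.3, 87.48, 154.6 and 154.8 in control uteri. EE-treated uteri lay above controls at both times, and those of 28 h lay below those of 4 h. The effect was 0.56 ± 0.13 at 28 h and 2.04 ± 0.13 at 4 h, and at 24 h it was -0.99. Gadd45g, a growth arrest and stress protein, had 502.2, 566.7, 444.6, 435.6 and 488.4 in EE-treated uteri at 28 h and 52.37, 50.18, 59.23 and 58.42 in 4 control uteri. At 4 h Gadd45g had 972, 711.4, 818.6, 827.5 and 1013 in EE-treated and 52.23, 34.77, 52.11, 44.6 and 47.07 in control uteri. Its effect stayed large but was smaller at 28 h, 2.60 ± 0.13 against 3.55 ± 0.12 at 4 h (difference -0.95 ± 0.17, adjusted p = 1.39e-05). Its relative Gadd45a had 0.17 at 28 h, which did not pass, and 1.39 at 4 h, and Tnfrsf12a, the receptor of the cytokine TWEAK, had 0.60 at 28 h and 1.99 at 4 h. Spry1, an inhibitor of receptor tyrosine kinase signalling, fell at both times, with -1.40 at 28 h and -0.64 at 4 h.

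Among estrogen-responsive uterine genes, 4 of 19 were more positive in the difference and 5 more negative, beside 18.3% and 17.7% of all genes. As a list they were thus near the shares of all genes. Pgr, the progesterone receptor and a classical estrogen target, had an effect of 0.86 at 28 h and 1.27 at 4 h. Its difference of -0.41 ± 0.16 passed (adjusted p = 0.0353), but not when any 1 of 8 arrays was left out (adjusted p up to 0.118). These were EE-treated replicates 58 and 59 and control replicates 50 and 52 of 28 h, and EE-treated replicates 23 and 24 and control replicates 15 and 16 of 4 h. Inhbb, a subunit shared by activins and inhibins, had 2.80 at 28 h and 3.44 at 4 h (difference -0.64 ± 0.18, adjusted p = 0.00345). Aqp5, a water channel, had -0.97 at 28 h and -0.07 at 4 h, of which only the 28 h effect passed. Esr1, the estrogen receptor itself, had an effect of 0.04 at 28 h and 0.12 at 4 h, neither of which passed, and it was higher at 28 h than at 4 h in EE-treated uteri by 0.42 and in control uteri by 0.49. The coactivator Ncoa1 fell more at 28 h (-0.97) than at 4 h (-0.45).

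C3, complement component 3 and a late estrogen target in the rat uterus, could not be tested because control values were too few. It had 1228, 970.7, 828, 1425 and 919.9 in EE-treated uteri at 28 h, and values of 24.36 and 29.12 in 2 of the 5 controls. At 4 h C3 had 29.55, 57.19, 51.92 and 26.8 in 4 EE-treated uteri and 22.84 in 1 control. Between EE-treated uteri alone it was higher at 28 h than at 4 h by 3.94 log2 units (adjusted p = 9.94e-19), and the groups did not overlap.

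Ribosome biogenesis genes, which make and assemble ribosomal RNA, rose at 4 h and less so at 28 h. Of 44 tested, 30 were more negative in the difference and 2 more positive (median -0.413), beside 17.7% and 18.3% of all genes. At 28 h 32 of the 44 rose and at 4 h 40 rose, with 0 falls at either time. Nolc1, a nucleolar chaperone of ribosomal RNA processing, had 178.7, 180.6, 190.4, 165.9 and 172.9 in EE-treated and 152.1, 155.7, 183.6, 173.6 and 147.1 in control uteri at 28 h. At 4 h Nolc1 had 398.8, 382.2, 390.2, 383.1 and 452.7 in EE-treated and 200.3, 190.8, 135.7, 163.2 and 152.7 in control uteri. The groups overlapped at 28 h only. The effect was 0.11 ± 0.08 at 28 h and 1.13 ± 0.08 at 4 h.

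Gnl3, also called nucleostemin, had 282.7, 253.8, 285, 234.7 and 276.6 in EE-treated and 129, 138.2, 154, 149.4 and 129.9 in control uteri at 28 h. At 4 h Gnl3 had 520, 443.4, 447.4, 477.9 and 517.3 in EE-treated and 122.8, 148.7, 119.9, 154.7 and 129.7 in control uteri. It rose at both times without overlap, and EE-treated uteri of 28 h lay below those of 4 h. Its effects were 1.63, 0.01 and 0.80 at 4, 24 and 28 h, so the effect at 28 h was larger than that at 24 h (by 0.79, adjusted p = 5.84e-08). Rrp9, a component of the small nucleolar RNA complexes, had 0.33 at 28 h and 1.10 at 4 h.

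Other groups of the protein synthesis apparatus moved the same way, with smaller differences. Of 19 transfer RNA synthetases 8 were more negative in the difference and 0 more positive, among them Aars1 (0.71 at 28 h and 1.37 at 4 h) and Yars1 (0.49 and 1.22). Of 22 translation factors 9 were more negative and 3 more positive, and Eif3a had 0.26 at 28 h and 0.80 at 4 h. Of 24 cytosolic and mitochondrial chaperones 16 were more negative and 1 more positive (median -0.267). For comparison with these 3 lists, 17.7% of all genes were more negative and 18.3% more positive. Hsph1, a heat shock protein of the Hsp110 family, had 0.36 at 28 h and 1.496 at 4 h, Hspa4 of the same family had -0.08, which did not pass, and 1.05, and the mitochondrial Hspa9 had 0.46 and 1.23. By contrast, 29 of 30 cytosolic ribosomal proteins did not pass in the difference (median -0.0101).

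Amino acid supply and the targets of Atf4 changed for 9 of 18 genes, 7 more negative and 2 more positive. Over all genes 35.9% changed, 17.7% more negative and 18.3% more positive. Atf4, the transcription factor of the amino acid response, had 653.8, 713.3, 642.5, 666.5 and 745.9 in EE-treated and 467.8, 457.7, 555.8, 498.1 and 520.9 in control uteri at 28 h. At 4 h Atf4 had 1228, 1266, 1208, 1170 and 1386 in EE-treated and 500.3, 502.7, 555.6, 510.6 and 517.4 in control uteri. It rose at both times without overlap, by 0.43 ± 0.06 at 28 h and 1.23 ± 0.06 at 4 h (difference -0.79 ± 0.08, adjusted p = 1.24e-11). The amino acid transporters Slc7a1 and Slc3a2 had 0.54 and -0.03 at 28 h, against 1.49 and 0.79 at 4 h, and the 28 h value of Slc3a2 did not pass.

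**Figure D5:**
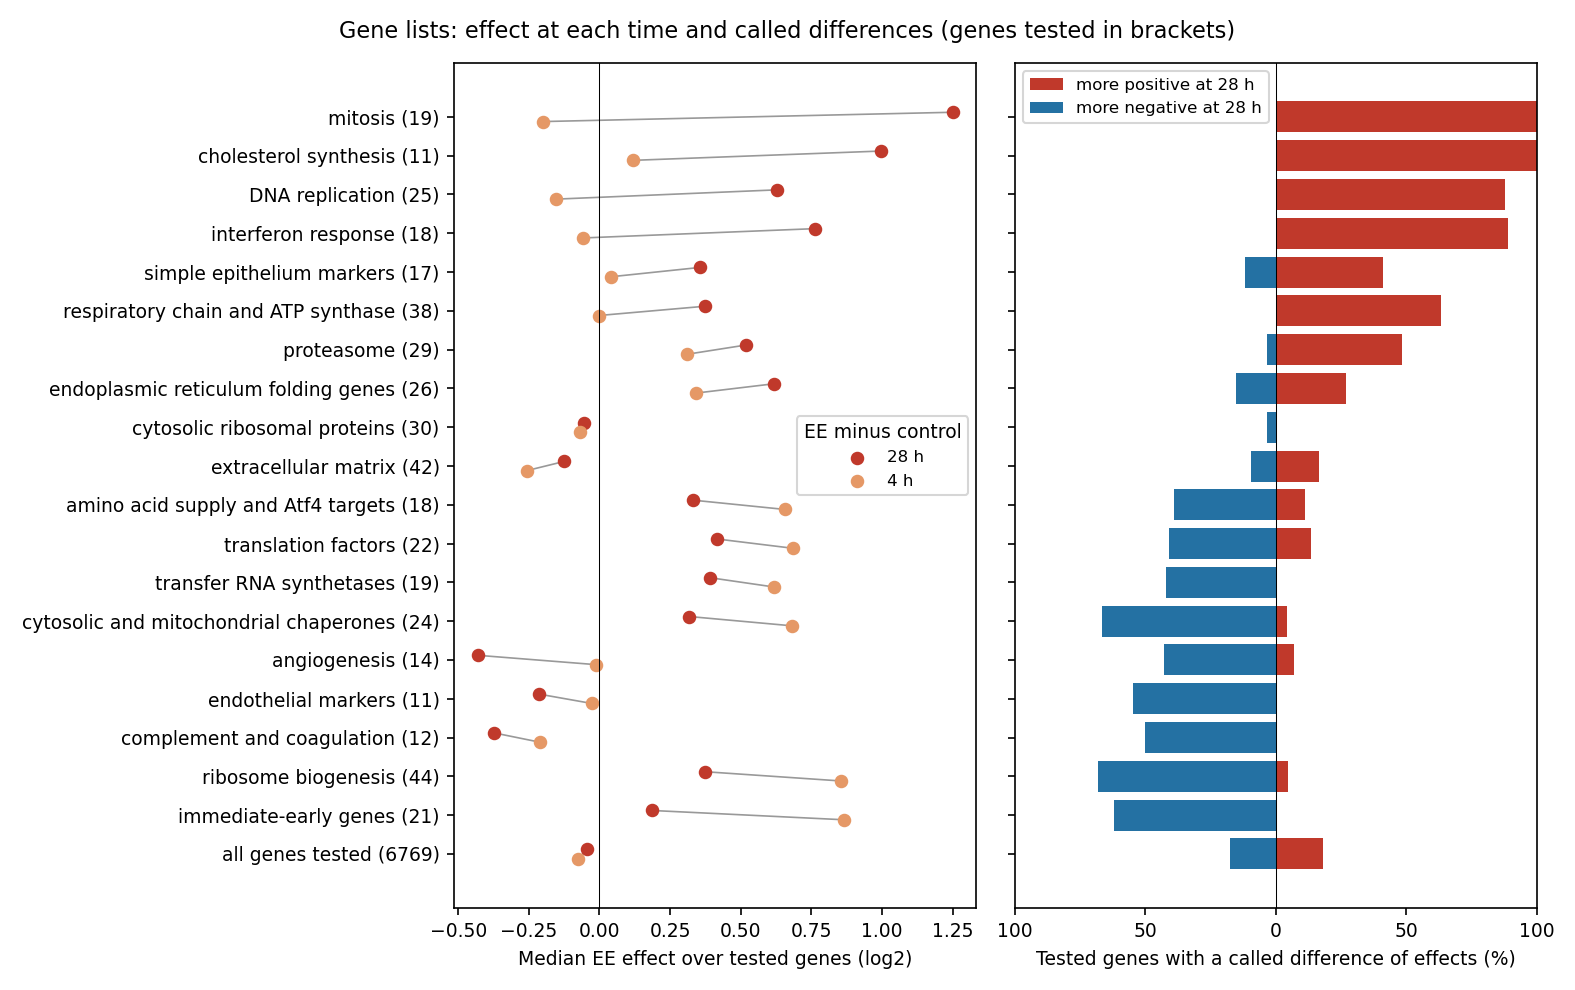
Left, the median EE effect (log2) over the tested genes of each list at 28 h (red) and 4 h (orange); right, the share of tested genes whose difference of effects passed, more positive (red, to the right) or more negative (blue, to the left) at 28 h; brackets give the genes tested. All 19 mitosis and all 11 cholesterol synthesis genes lie to the right, ribosome biogenesis and immediate-early genes mainly to the left, and cytosolic ribosomal proteins lie near 0 in both panels.

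Among genes of vessel growth, Vegfa and its receptor Kdr rose at 4 h and fell at 28 h. Vegfa, the main growth factor of blood vessels and of vessel leakiness, had 122.6, 98.62, 111.6, 106.2 and 100.5 in EE-treated and 128.7, 169.4, 189.5, 166.1 and 102.4 in control uteri at 28 h. At 4 h Vegfa had 293.5, 231.3, 197.8, 251.6 and 306.7 in EE-treated and 124.4, 137.2, 95.24, 177.2 and 131 in control uteri. EE-treated uteri lay above all controls at 4 h, and the groups overlapped at 28 h, where their mean was lower. The effects were 0.81, -1.04 and -0.37 at 4, 24 and 28 h, all of which passed (at 28 h adjusted p = 0.00698), and the difference of 28 h from 4 h was -1.19 ± 0.17 (adjusted p = 1.96e-07). Its receptor Kdr had -0.50 at 28 h and 0.52 at 4 h, and the endothelial co-receptor Eng had -0.20 at 28 h, which did not pass, and 0.50 at 4 h. Of 14 angiogenesis genes 6 were more negative in the difference and 1 more positive (median -0.309), beside 17.7% and 18.3% of all genes. Of 11 endothelial markers 6 were more negative and 0 more positive (median -0.357), and Kdr is in both lists. The summed intensity of 9 endothelial markers with a value on all 20 arrays was 1131 to 1765 in EE-treated and 1300 to 1456 in control uteri at 28 h, and 1904 to 2874 in EE-treated and 1303 to 1624 in control uteri at 4 h. Their part in the results for vessel genes was not tested.

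Wnt4 and Axin2, of Wnt signalling, rose at 4 h, and at 28 h only Axin2 passed, as a fall. Wnt4, a ligand needed for stromal differentiation in the mouse uterus, had 170.3, 179.4, 130.8, 128.2 and 191 in EE-treated and 149, 180.4, 161.2, 180.2 and 168.8 in control uteri at 28 h. At 4 h Wnt4 had 427.9, 417, 227.7, 308.9 and 235.8 in EE-treated and 78.58, 137.5, 107.7, 122.1 and 118.5 in control uteri. The groups overlapped at 28 h and not at 4 h. Its effects were 1.28, -0.97 and -0.07 at 4, 24 and 28 h. Axin2, a target and feedback inhibitor of Wnt signalling, had 0.75, -1.01 and -0.41. Of 22 genes of Wnt signalling 6 were more negative in the difference and 3 more positive, beside 17.7% and 18.3% of all genes.

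Inmt, an amine N-methyltransferase, had the most negative difference of the genes named here. It had 705.1, 768, 395.1, 388.8 and 719.1 in EE-treated and 844.3, 1076, 891.5, 979.3 and 739.9 in control uteri at 28 h. At 4 h Inmt had 1344, 1463, 1326, 1146 and 1739 in EE-treated and 700.7, 479.2, 664.6, 727.6 and 547.4 in control uteri. EE-treated uteri lay above all controls at 4 h, and the groups overlapped at 28 h. Its effect was -0.63 ± 0.16 at 28 h and 1.14 ± 0.16 at 4 h, and the control uteri were higher at 28 h than at 4 h by 0.52 (adjusted p = 0.035). Npr2, the receptor of C-type natriuretic peptide, had -0.46 at 28 h and 0.44 at 4 h, the splicing factor Srrm2 -0.63 and 0.55, and the smooth muscle protein Synpo2 -0.26 and 0.35. Mt2A, a metallothionein, had -0.24 at 28 h, which did not pass, and 0.96 at 4 h.

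Cell division genes were higher with EE at 28 h, where all 19 mitosis genes and 24 of 25 DNA replication genes rose. In the difference all 19 mitosis genes tested were more positive (median 1.44), and 22 of 25 DNA replication genes were (median 0.818, 0 more negative). At 4 h 3 mitosis genes and 7 replication genes fell, and 0 and 1 rose. Cdk1, the kinase that drives entry into mitosis, had 395.9, 414.8, 460.4, 370 and 351.9 in EE-treated and 75.9, 91.22, 71.58, 77.54 and 96.69 in control uteri at 28 h. At 4 h Cdk1 had 95.57, 88.37, 164.7, 170.3 and 92.5 in EE-treated and 143.7, 185.2, 160.8, 100 and 180.2 in control uteri. EE-treated uteri of 28 h lay above all other groups, and at 4 h EE-treated and control uteri overlapped. Its effect was 1.92 ± 0.16 at 28 h and -0.29 ± 0.16 at 4 h, and the 4 h effect did not pass (adjusted p = 0.107).

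Mki67, the protein of the Ki-67 proliferation marker, had 276.4, 324.9, 334.4, 272.4 and 212.1 in EE-treated and 50.41, 78.97, 56.53, 71.8 and 63.91 in control uteri at 28 h. At 4 h Mki67 had 84.73, 70.44, 192.8, 176.5 and 101.9 in EE-treated and 153.5, 183.3, 172.8, 76.12 and 186.2 in control uteri. At 4 h the same 2 EE-treated uteri stood high for Mki67 and Cdk1, and 1 control uterus stood low for both. Every EE-treated uterus of 28 h lay above all others. Its effect was 1.72 ± 0.20 at 28 h and -0.28 ± 0.20 at 4 h (difference 2.00 ± 0.28, adjusted p = 9.99e-08).

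Large differences were also those of Cks2, a subunit of cyclin-dependent kinases (2.18 at 28 h and -0.23 at 4 h), Cdkn3, a phosphatase of these kinases (2.07 and -0.30), Pclaf, a partner of PCNA (2.06 and -0.23), and Top2a, which untangles DNA (1.93 and -0.25). None of their 4 h effects passed. Tk1 and Dut, enzymes of nucleotide supply, had 1.71 and 1.23 at 28 h, and -0.30 and -0.15 at 4 h, neither of which passed. Cdca3, a trigger of mitotic entry, Stmn1, a regulator of microtubules, and Hmmr, a spindle protein, had 1.42, 1.25 and 0.95 at 28 h and -0.58, -0.54 and -0.28 at 4 h, each of which passed. At 24 h the effects of Cdk1, Mki67 and Cks2 were 1.99, 1.71 and 2.26, and none of the 3 differed between 28 h and 24 h by the test (adjusted p = 0.919, 0.991 and 0.923).

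Control uteri contributed to these differences. Of the 19 mitosis genes 11, and of the 25 replication genes 13, were lower at 28 h than at 4 h in control uteri, beside 3.56% of all genes. With 1 of the 20 arrays left out these counts were 8 to 13 and 11 to 14. In controls the 28 h minus 4 h difference was -0.93 for Mki67, -0.92 for Cks2, -1.04 for Top2a, -1.12 for Pclaf and -0.69 for Cdk1 (log2). In EE-treated uteri these genes were higher at 28 h than at 4 h, Mki67 by 1.07, Cks2 by 1.49, Top2a by 1.14, Pclaf by 1.17 and Cdk1 by 1.53. Without any 1 of the 20 arrays the difference of Mki67 stayed between 1.86 and 2.19, and that of Cdk1 between 2.13 and 2.33.

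Regulators of the step before DNA synthesis did not move as a group, with 2 of 12 more positive and 3 more negative (18.3% and 17.7% of all genes). Ccnd1, cyclin D1, had 0.06 at 28 h and -0.01 at 4 h, and neither passed. Cdkn2c, an inhibitor of the cyclin D kinases, rose by 0.50 at 28 h and fell by 0.70 at 4 h. The inhibitor Cdkn1c fell by 0.87 at 28 h and had -0.19 at 4 h, which did not pass, while E2f5, a repressive E2F, had 0.04 at 28 h, which did not pass, and 0.55 at 4 h.

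Promoters of mitosis genes are known to carry CCAAT boxes together with the CHR, an element read by the DREAM and MuvB complexes. Of 16 mitosis genes with a promoter in the table, 15 (93.8%) held CCAAT, 12 (75%) held the CHR letters TTTGAA and 11 (68.8%) held both, on either strand. Among all 27457 promoters these shares were 37.7%, 18.2% and 7.32%, and among the 5694 promoters of genes tested 37.8% held CCAAT and 11% the CHR. Of 23 replication genes 16 (69.6%) held CCAAT and 2 (8.7%) the CHR. The promoters of Cdk1 (chr20:19265043-19265342, plus strand) and Cks2 (chr17:13727470-13727769, minus strand) are shown as examples that hold both. Capitals mark CCAAT and TTTGAA or their reverse complements.
Cdk1: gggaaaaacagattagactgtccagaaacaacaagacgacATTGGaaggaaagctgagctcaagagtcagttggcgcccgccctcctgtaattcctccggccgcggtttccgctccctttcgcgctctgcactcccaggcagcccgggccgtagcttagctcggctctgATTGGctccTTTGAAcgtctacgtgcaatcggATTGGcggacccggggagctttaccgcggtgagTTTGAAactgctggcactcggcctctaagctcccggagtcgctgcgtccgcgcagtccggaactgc
Cks2: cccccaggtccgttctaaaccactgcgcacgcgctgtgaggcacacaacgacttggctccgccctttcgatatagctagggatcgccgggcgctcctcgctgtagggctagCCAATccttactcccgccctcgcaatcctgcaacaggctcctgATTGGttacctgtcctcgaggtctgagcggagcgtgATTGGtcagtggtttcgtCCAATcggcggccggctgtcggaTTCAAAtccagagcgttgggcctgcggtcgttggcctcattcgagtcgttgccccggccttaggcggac

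Several metabolic groups had more positive EE effects at 28 h than at 4 h. All 11 cholesterol synthesis genes were more positive in the difference (median 0.929), and 11 rose at 28 h against 4 rises and 2 falls at 4 h. Fdps, which makes farnesyl diphosphate, had 484.9, 671.7, 759.8, 767.9 and 594.1 in EE-treated and 156.7, 101.4, 82.18, 115 and 99.94 in control uteri at 28 h. At 4 h Fdps had 213.8, 281.4, 297.3, 318.3 and 225.4 in EE-treated and 171.6, 143.7, 158.6, 151.2 and 172.4 in control uteri. It was higher in EE-treated uteri at both times without overlap, with effects of 2.28 ± 0.16 at 28 h and 0.64 ± 0.16 at 4 h. Dhcr7, the last enzyme of the pathway, had 0.996 at 28 h and 0.08 at 4 h, which did not pass. At 24 h Fdps had 2.04 and Dhcr7 0.99, and the difference between 28 h and 24 h did not pass (adjusted p = 0.626 and 0.983). Ebp, a sterol isomerase, rose by 0.62 at 28 h and fell by 0.33 at 4 h.

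Of 38 genes of the respiratory chain and ATP synthase 24 were more positive in the difference and 0 more negative (median 0.347). These shares were 18.3% and 17.7% of all genes. At 28 h 30 rose and 1 fell, and at 4 h 7 rose and 5 fell. Cox7b, a subunit of cytochrome c oxidase, had 884.8, 918.6, 946.8, 977.6 and 949.8 in EE-treated and 528.3, 524.3, 468.3, 482 and 503.6 in control uteri at 28 h. At 4 h Cox7b had 523.3, 690.2, 736.7, 676.9 and 621.4 in EE-treated and 645.6, 655.4, 729.1, 603.2 and 678.6 in control uteri. The groups overlapped at 4 h only, and the effect was 0.86 ± 0.07 at 28 h and -0.03 ± 0.07 at 4 h. At 24 h Cox7b had 0.90, and its difference between 28 h and 24 h did not pass (adjusted p = 0.884). Control uteri were lower at 28 h than at 4 h for 11 of the 38 genes, Cox7b among them (-0.38, adjusted p = 0.000614). Ndufa1, a subunit of complex I, rose by 0.56 at 28 h and fell by 0.18 at 4 h.

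Of 29 proteasome genes 28 rose at 28 h and 24 at 4 h. In the difference 14 were more positive and 1 more negative, and the median difference was small (0.218). For 22 of the 29 the effect was of similar size at both times by the bounds given above. Psme2, a part of the interferon-inducible proteasome activator, had 1.17 at 28 h and 0.15 at 4 h, which did not pass. Of 26 folding genes of the endoplasmic reticulum 7 were more positive and 4 more negative, beside 18.3% and 17.7% of all genes. Pdia6, a disulfide isomerase, had 0.99 at 28 h and 0.22 at 4 h, and Sec61b, of the protein channel, 1.03 and 0.03, the last of which did not pass. Of 17 glycolysis genes 8 were more positive and 2 more negative, again beside 18.3% and 17.7% of all genes. They included Pgk1 (1.17 at 28 h and 0.20 at 4 h, the 4 h effect not passing, and 1.22 at 24 h) and the lactate transporter Slc16a1 (0.46 and 1.35). Fatty acid oxidation genes fell at 4 h, 15 of 25 with 0 rises, beside falls for 34.4% and rises for 23.5% of all genes. At 28 h 9 fell and 4 rose, beside 34.5% and 28.4% of all genes. In the difference 8 of the 25 were more positive and 2 more negative, beside 18.3% and 17.7%. Acadm, the medium-chain acyl-CoA dehydrogenase, had 0.20 at 28 h, which did not pass, and fell by 0.60 at 4 h.

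Interferon-response genes, which are antiviral proteins and parts of antigen presentation, were higher with EE at 28 h. Of 18 tested 16 were more positive in the difference and 0 more negative (median 0.752), with 14 rises and 0 falls at 28 h, and 1 rise and 3 falls at 4 h. Usp18, a brake on interferon signalling, had 269.7, 197.9, 231.1, 256 and 227.9 in EE-treated and 86.31, 110.4, 88.37, 97.8 and 103.1 in control uteri at 28 h. At 4 h Usp18 had 75.59, 58.73, 51.7, 74.17 and 76.07 in EE-treated and 89.02, 110.4, 98.3, 101 and 89.81 in control uteri. EE-treated uteri lay above all controls at 28 h and below all controls at 4 h, with effects of 1.06 ± 0.11 and -0.40 ± 0.11. Mx1, an antiviral GTPase, had 1.08 at 28 h and -0.06 at 4 h, and Psmb10, a subunit of the immunoproteasome, had 1.13 and 0.14. Neither 4 h value passed. Interferon genes are also expressed by immune cells. Of 9 macrophage markers 3 were more positive in the difference and 1 more negative, beside 18.3% and 17.7% of all genes. The other 5 did not pass, and the median difference of the 9 was 0.198. At 28 h 5 of the 9 rose and 2 fell, and at 4 h 1 rose and 2 fell. Cd14 and Aif1 were 2 of the 3 more positive ones. Cd14 had 0.81 at 28 h and 0.14 at 4 h, and Aif1 0.51 and -0.23. The summed intensity of 8 macrophage markers with a value on all 20 arrays was 1589 to 2610 in EE-treated and 1334 to 1690 in control uteri at 28 h, and 1375 to 1688 in EE-treated and 1128 to 1567 in control uteri at 4 h. The part of macrophage markers in the interferon result was not tested.

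The element that interferon-activated factors read holds a pair of GAAA letters. With GAAA, any 2 bases and again GAAA as its core, 11 of 16 interferon genes (68.8%) had a match on either strand, against 3.79% of all promoters and 2.85% of those of genes tested. Psmb10 is shown because it carries 2 matches (chr19:50743243-50743542, minus strand, in capitals), beginning 73 and 17 bases before the start.
Psmb10: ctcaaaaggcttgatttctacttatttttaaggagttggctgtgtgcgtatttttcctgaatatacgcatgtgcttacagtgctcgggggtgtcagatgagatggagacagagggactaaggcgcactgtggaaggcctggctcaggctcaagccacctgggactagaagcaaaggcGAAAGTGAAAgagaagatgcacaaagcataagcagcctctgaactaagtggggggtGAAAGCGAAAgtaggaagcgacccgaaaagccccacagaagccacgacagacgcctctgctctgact

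Epithelial genes differed among themselves. Of 17 markers of simple epithelium 7 were more positive in the difference and 2 more negative (median 0.441). Over all genes these shares were 18.3% and 17.7%. Krt8, a keratin of simple epithelium, had 823.3, 892.3, 915.8, 1096 and 723.6 in EE-treated and 334.1, 308.4, 316.2, 261.5 and 308.1 in control uteri at 28 h. At 4 h Krt8 had 415.4, 576, 339.5, 386.3 and 337.9 in EE-treated and 311.2, 362.8, 445.5, 407.3 and 357.9 in control uteri. EE-treated uteri of 28 h stood above all others, and at 4 h the groups overlapped. The effect was 1.45 ± 0.12 at 28 h and 0.10 ± 0.12 at 4 h. Krt19 had 2.01 at 28 h and 0.18 at 4 h, which did not pass. The summed intensity of 12 simple epithelium markers with a value on all 20 arrays was 5216 to 6862 in EE-treated and 3803 to 4714 in control uteri at 28 h, and 3607 to 5532 in EE-treated and 4257 to 5404 in control uteri at 4 h. The part of epithelial share in the rise of cell division genes was not tested. Crip1, a small LIM protein, rose by 1.58 at 28 h and fell by 0.47 at 4 h.

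Keratins of layered epithelium had high and uneven values. Krt14, of basal cells, had 1402, 2482 and 2597 in 3 EE-treated uteri at 28 h and 246.6, 100.5, 69.15 and 302.4 in 4 control uteri. At 4 h Krt14 had 99.07, 887 and 626.9 in 3 EE-treated and 115.4, 198.5, 268.1 and 174.8 in 4 control uteri. The values present at 28 h did not overlap, but they rest on 3 of 5 EE-treated arrays, since replicates 55 and 57 were blank for Krt14, and the spread within groups was wide. The difference of 2.50 ± 0.98 passed (adjusted p = 0.0416), and it did not without any 1 of control replicates 51 and 52 of 28 h and 15, 16 and 18 of 4 h (adjusted p up to 0.0864). Krt10, a keratin of upper layers, had 2.28 at 28 h and -0.11 at 4 h, which did not pass, and its groups overlapped at both times. On EE-treated replicates 55 and 57 of 28 h Krt10 had 22.09 and 32.84, with 578.8 to 961.1 on the other 3 and 17.7 to 37.97 in controls of 28 h. Klf4 was also lowest on these 2 replicates, with 410 and 380.2 against 556.5, 576.3 and 728.5. At 4 h Klf4 was highest on EE-treated replicates 20 and 23 (688.8 and 473), where Krt14 had 887 and 626.9. The part of layered epithelium in the Klf4 values was not tested. Of 8 markers of layered epithelium 3 were more positive and 0 more negative, beside 18.3% and 17.7% of all genes.

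Of 18 smooth muscle markers 15 did not pass in the difference, with 2 more positive and 1 more negative (median 0.0984). Of 3 eosinophil and mast cell markers and 2 blood cell markers 0 passed, but 11 of 14 and 5 of 7 of those on the array had too few values to be tested. Serpinb1a, a protease inhibitor of leukocytes and other cells, rose by 0.55 at 28 h and fell by 0.63 at 4 h, and Glrx, a glutaredoxin, rose by 1.201 and fell by 0.53. Glrx was uneven at 28 h, with 123.7 and 109 on EE-treated replicates 55 and 57 and 190.7, 306.5 and 462.8 on the others.

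Among the genes that fell, several fell further at 28 h than at 4 h. Cpe, carboxypeptidase E, had 271.9, 228.9, 185.4, 194.5 and 230.6 in EE-treated and 1080, 1367, 1108, 1048 and 1078 in control uteri at 28 h. At 4 h Cpe had 691.9, 684.3, 568.1, 450.3 and 673.6 in EE-treated and 832.2, 896, 820.9, 953 and 946.8 in control uteri. EE-treated uteri lay below controls at both times and lower at 28 h than at 4 h, with effects of -2.21 ± 0.11 at 28 h and -0.53 ± 0.11 at 4 h. Enpp2, the enzyme autotaxin that makes lysophosphatidic acid, had -2.31 at 28 h and -0.74 at 4 h, and Tgfbi, a matrix protein induced by TGF-beta, -2.297 and -0.88. Them5, a thioesterase, had -2.44 and -0.99, Pi16, a peptidase inhibitor of fibroblasts, -2.01 and -0.53, Rnf144b, a ubiquitin ligase, -1.91 and -0.41, and Sult1a1, a sulfotransferase of phenols, -2.21 and -0.94. Asgr2, a subunit of the asialoglycoprotein receptor, fell by 1.74 at 28 h and had -0.11 at 4 h, which did not pass.

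Igfbp3 and Serping1 fell further at 28 h than at 4 h. Igfbp3, a binding protein that limits Igf action, had 198.9, 142.9, 122.9, 146.7 and 237.6 in EE-treated and 709.1, 541.2, 569.1, 703.5 and 707.6 in control uteri at 28 h. At 4 h Igfbp3 had 342.3, 318.8, 408, 323.3 and 345.5 in EE-treated and 663.3, 539.8, 582.4, 569.6 and 587.2 in control uteri. Every EE-treated uterus lay below all controls, and those of 28 h lay below those of 4 h, with effects of -1.78 ± 0.12 at 28 h and -0.71 ± 0.13 at 4 h. The receptor Igf1r had -1.16 at 28 h and -0.62 at 4 h, and Igf2 -0.89 and -0.24. Of 16 Igf genes 5 were more negative in the difference and 0 more positive, beside 17.7% and 18.3% of all genes, and 11 did not pass.

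Of 12 complement and coagulation genes 6 were more negative, 0 more positive and 6 did not pass (median -0.378). Over all genes 17.7% were more negative and 18.3% more positive. Serping1, the C1 inhibitor, had -1.72 at 28 h and -0.45 at 4 h, and Thbd, thrombomodulin, fell by 1.37 at 28 h and had -0.17 at 4 h, which did not pass. Control uteri were higher for Serping1 at 28 h than at 4 h by 0.72 (adjusted p = 2.99e-05). Of 42 extracellular matrix genes 7 were more positive and 4 more negative, beside 18.3% and 17.7% of all genes. Timp3 and Timp1, both inhibitors of matrix proteases, went opposite ways: Timp3 fell by 0.91 at 28 h with -0.07 at 4 h, which did not pass, and Timp1 rose by 1.19 at 28 h and 0.76 at 4 h. Postn, periostin, had -1.42 at 28 h and -0.46 at 4 h.

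The samples of 28 h and 4 h share the time of day, and clock genes were examined for that reason. Of 16 clock genes on the array only 8 had enough values to be tested. In control uteri 1 of these 8 was higher at 28 h than at 4 h and 0 were lower, beside 2.37% and 3.56% of all genes. The 1 was Hlf (by 0.32, adjusted p = 0.0473). With EE 7 of the 8 fell at 28 h and 0 rose, and at 4 h 5 fell and 1 rose. In the difference 4 were more negative and 0 more positive (median -0.35), beside 17.7% and 18.3% of all genes. Bmal1, a core activator of the clock, had -0.47 at 28 h and -0.02 at 4 h, which did not pass, and Hlf had -0.83 and -0.38. Clock, its partner, had 0.12 at 28 h, which did not pass, and 0.43 at 4 h, a difference of -0.31 that did not pass without any 1 of EE-treated replicates 55 and 58 and control replicate 52 of 28 h (adjusted p up to 0.0581).

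Genes with fewer than 3 values in any of the 4 groups were not tested, and some of them had values mainly in 1 or 2 of the groups. On all 5 EE-treated uteri of 28 h and on at most 1 of 5 arrays in each other group there were values for 26 genes. These included, named after their values were seen, the mitotic kinases Aurka (mean 64.79) and Plk1 (130.7), and Scgb1a1, a secretoglobin of secretory epithelium (77.82). For 13 genes this held for EE-treated uteri of 4 h, among them the immediate-early transcription factors Atf3 (60.83) and Nr4a3 (87.18). For 32 genes it held for all 10 EE-treated uteri of both times, among them Cdkn1a, the p21 inhibitor (164.4 at 28 h and 144.4 at 4 h), and the chemokine Ccl2 (81.36 and 108.7). For 21 genes it held for all 10 controls, such as the chemokine receptor Cxcr4 (105.1 at 28 h and 84.61 at 4 h). No fold change is given, because the reason for blank cells is not given in the sources used here.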

How the data were processed

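Total RNA of whole uteri (RNeasy, 5 µg) was labelled with biotin and hybridised to Affymetrix RAE230A arrays, per the labels' protocols. The authors deposited 1 linear intensity per probe set and array, with blank cells. Their summarisation, scaling and cause of blanks were not given in the sources used here. Each gene was represented by its probe set with the highest mean, and genes with at least 3 values in each group compared were tested on log2(deposited intensity + 30.43). The offset was the 10th percentile of the values of all arrays, uterus and pituitary together.

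Group means were fitted over 70 uterus arrays in 14 groups with a pooled variance per gene, moderated as in limma 3.58.1 (R 4.3.3), and contrasts were adjusted by Benjamini-Hochberg over all genes tested. The code was tested on simulated data. The number of arrays limits the precision. Genes were named by a rule: the largest differences, reversals and repeated effects, the 3 smallest p-values of each gene list, and fixed estrogen genes. The members and lists were chosen with earlier results of these data known. Promoters came from a RefSeq table (GRCr8). Alternatives were other offsets, scalings, filters, probe sets, variances and fits, and each array left out.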

Additional observations from a re-analysis of the deposited data

Results flagged for a closer look

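Single arrays stood apart from the other 4 of their group for 6 genes and for 1 quality measure. Among the genes shown array by array these were Igf1 in control replicate 50 of 28 h (453), Cpe in the same array (1367), Txnip in EE-treated replicate 57 of 28 h (416.8), Sox4 in EE-treated replicate 55 of 28 h (83.03), Nolc1 in EE-treated replicate 24 of 4 h (452.7) and Mki67 in control replicate 17 of 4 h (76.12). The log2 difference between the 3'-end and 5'-end probe sets of Actb stood apart in EE-treated replicate 19 of 4 h (0.1394). Chance alone marks about 1 in 20 groups in this way. The calls of these 6 genes were the same without the array concerned.

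For 89 of the genes described, not counting Spry1, the EE effect differed between 28 h and 4 h by the test of the difference itself. Spry1 passed as well (-0.76, adjusted p = 7.7e-07) and is left out of the ranking below. The values are log2 differences of the 28 h effect minus the 4 h effect. The most negative belonged to Inmt (-1.76), Cpe (-1.68), Asgr2 (-1.62), Enpp2 (-1.57), Rnf144b (-1.50), Pi16 (-1.48), Errfi1 (-1.48), Them5 (-1.46), Tgfbi (-1.42), Tnfrsf12a (-1.39), Egr1 (-1.37) and Wnt4 (-1.35). Next came Sult1a1 (-1.27), Serping1 (-1.26), Gadd45a (-1.21), Mt2A (-1.21), Thbd (-1.20), Vegfa (-1.19), Srrm2 (-1.18), Axin2 (-1.16), Hsph1 (-1.14), Hspa4 (-1.13), Igfbp3 (-1.06) and Kdr (-1.02). Less negative were Nolc1 (-1.01), Postn (-0.97), Gadd45g (-0.95), Slc7a1 (-0.95), Zfp36 (-0.94), Aqp5 (-0.91), Npr2 (-0.89), Slc16a1 (-0.89), Timp3 (-0.84), Gnl3 (-0.83), Slc3a2 (-0.81) and Atf4 (-0.79). Smaller negative differences belonged to Rrp9 (-0.77), Hspa9 (-0.77), Yars1 (-0.72), Eng (-0.71), Cdkn1c (-0.68), Aars1 (-0.67), Igf2 (-0.65), Inhbb (-0.64), Srf (-0.62), Synpo2 (-0.61), Eif3a (-0.54) and Igf1r (-0.54). The smallest negative ones belonged to Ncoa1 (-0.52), E2f5 (-0.50), Hlf (-0.45), Bmal1 (-0.44), Pgr (-0.41) and Clock (-0.31).

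Among positive differences the largest belonged to Krt14 (2.50), Cks2 (2.41), Krt10 (2.39), Cdkn3 (2.37), Pclaf (2.29), Cdk1 (2.21), Top2a (2.19), Crip1 (2.05), Tk1 (2.01), Cdca3 (2.00), Mki67 (2.00) and Krt19 (1.83). These were followed by Stmn1 (1.78), Glrx (1.74), Fdps (1.64), Usp18 (1.46), Dut (1.39), Krt8 (1.34), Hmmr (1.23), Cdkn2c (1.201), Serpinb1a (1.19), Mx1 (1.14), Psme2 (1.02) and Sec61b (1.005). Less positive were Psmb10 (0.99), Pgk1 (0.96), Ebp (0.95), Dhcr7 (0.92), Cox7b (0.89), Acadm (0.79), Pdia6 (0.77), Ndufa1 (0.74), Aif1 (0.73), Cd14 (0.66) and Timp1 (0.43).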

How the results depend on the processing

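No difference of effects that passed for a named gene reversed under the alternatives run. Among those that did not pass, Sox4 (-0.181) had 0.236 and Ccnd1 (0.0673) had -0.145 with another probe set, and Klf4 ran from -0.0787 to 0.207 with 1 array left out. The count of genes that passed in the difference was 2432, and 1985 to 2666 under the other settings; with 1 array left out it was 2213 to 2412. The same counts were 4181 to 4413 for the EE effect at 28 h, 3807 to 4041 for that at 4 h and 2910 to 3224 for EE-treated uteri at 28 h against 4 h. Control uteri at 28 h against 4 h gave 211 to 438 genes with 1 array left out, against 423 with all. The low counts were 268 without control replicate 51 of 28 h, 211 without control replicate 15 of 4 h and 253 without control replicate 16 of 4 h, and the cause was not tested. Of the genes that passed there 40% were higher, and 51% under quantile normalization. Genes that rose at 4 h and fell at 28 h numbered 73 to 94 with 1 array left out, and those that fell and then rose 131 to 176. Similar rises numbered 751 to 810 and similar falls 1203 to 1276.

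Leaving Spry1 aside, 89 genes described passed in the difference. Of these, 86 did so without each of the 20 arrays in turn, the exceptions being Pgr, Krt14 and Clock. Krt14 also did not pass without an offset (adjusted p = 0.0561) or without moderation (0.062). Of 20 further probe sets of genes that passed, 18 passed the same way and 2 did not pass. No paired analysis was possible because the replicate numbers in the titles differ between all uterus groups. Array number, blank cells and signal near background limit what could be tested, and 3642 of 10411 genes on the array were not tested.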
